A study of Mus musculus with 10 samples.

Results

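The enzymes described here supply NADPH in mouse liver and carry the pentose phosphate pathway, and the members reported are Pgls, Pgd, Rpia, Tkt, Taldo1, Me1, Idh1, Idh2 and Nnt. They were chosen by name, and a probe set was taken as theirs where the array annotation gives that gene symbol. Of the 10 genes listed 9 were measured, by 19 probe sets among 34945 with a single gene symbol, which represent 18193 genes in all.

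The livers came from 10 male B6C3F1/Crl mice, a cross of C57BL/6 males with C3H/He females, aged 29 to 32 days on receipt and given 5 days to settle. The treated group of 5 drank water with 0.05% (w/v) phenobarbital, a barbiturate that induces drug-metabolising enzymes and is a non-genotoxic liver carcinogen of rodents, for 28 days. The control group of 5 was kept without it. RNA of each whole liver was hybridised to its own Affymetrix 3' expression array, and levels are on a log2 scale, per probe set. A difference of 1 between groups on this scale is a 2-fold difference.

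NADPH is the cell's carrier of reducing power for biosynthesis, for cytochrome P450 reactions through their reductase, and for the reduction of glutathione and thioredoxin. The oxidative arm of the pentose phosphate pathway makes NADPH from glucose 6-phosphate, with the lactonase PGLS and the dehydrogenase PGD among its enzymes, and leaves a pentose phosphate. The non-oxidative arm, with the isomerase RPIA, transketolase (TKT) and transaldolase (TALDO1), turns pentose phosphates into ribose 5-phosphate for nucleotides or back into glycolytic sugars. Cytosolic malic enzyme (ME1) and the isocitrate dehydrogenases of the cytosol (IDH1) and of mitochondria (IDH2) make NADPH from malate and isocitrate, and NNT passes hydride from NADH to NADP in the inner mitochondrial membrane.

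The sequences before the transcription start of the 4 members called higher below are shown because these members moved in the same direction. They run from 250 bases before an annotated start to 10 after it, 5' to 3' on the gene's strand, from RefSeq on GRCm38.p6. Me1 lies at chr9:86695905-86696164, Pgd at chr4:149166696-149166955, Rpia at chr6:70792166-70792425 and Idh2 at chr7:80115341-80115600, all on the minus strand. Capitals mark matches on either strand to TGACNNNGC, the core of the antioxidant response element that NRF2 binds, or to CCAAT, the box bound by NF-Y.
Me1: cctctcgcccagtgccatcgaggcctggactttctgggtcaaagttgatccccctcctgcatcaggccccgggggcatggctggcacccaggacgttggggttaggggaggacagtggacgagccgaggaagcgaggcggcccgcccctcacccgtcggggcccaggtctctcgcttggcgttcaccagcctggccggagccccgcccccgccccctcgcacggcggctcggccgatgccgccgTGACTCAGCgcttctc
Pgd: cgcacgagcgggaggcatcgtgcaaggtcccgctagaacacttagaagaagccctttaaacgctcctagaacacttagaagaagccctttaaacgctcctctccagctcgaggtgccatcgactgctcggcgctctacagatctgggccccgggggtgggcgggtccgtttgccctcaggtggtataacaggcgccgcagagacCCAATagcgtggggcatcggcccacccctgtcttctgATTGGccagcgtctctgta
Rpia: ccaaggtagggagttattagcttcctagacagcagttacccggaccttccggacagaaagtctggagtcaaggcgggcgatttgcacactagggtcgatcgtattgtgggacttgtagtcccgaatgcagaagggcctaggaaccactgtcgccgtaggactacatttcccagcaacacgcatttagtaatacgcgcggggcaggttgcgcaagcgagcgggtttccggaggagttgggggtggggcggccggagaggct
Idh2: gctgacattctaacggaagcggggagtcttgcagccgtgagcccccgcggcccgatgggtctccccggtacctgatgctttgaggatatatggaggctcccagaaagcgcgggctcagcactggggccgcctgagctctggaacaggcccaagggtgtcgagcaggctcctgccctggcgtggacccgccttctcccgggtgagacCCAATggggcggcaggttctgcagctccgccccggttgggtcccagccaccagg

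In the full RefSeq windows of 300 bases, which end 50 bases after a start, 8 of the 9 measured members had 11 windows. TGACNNNGC was found in 2 of the 11, at Me1 and at a second listed start of Pgd, and in 12.4% of all 32851 windows. The Me1 match spans the start, from base -6 to base 3. CCAAT was found in 5 of the 11 windows and in 37.4% of all, and CACGTG, the E-box, in none of the 11 and in 7.15% of all. No 2 of these matches overlapped, and a match describes letters, not binding.

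Hepatocyte markers were near the top of the scale in every liver, with no value under 14.05 among the 6 measured, as the tissue label says. Phenobarbital exposure showed in Cyp2b10, the classical induced P450, which went from 5.62 to 7.07 in controls to 13.45 to 13.56 in treated livers. The arrays fell into unequal sets on their poly-A spike-ins, bacterial RNAs added before labelling: their mean was 7.77 to 8.64 on control replicates 1, 2, 3 and 5, and 5.76 to 6.58 on the 5 treated arrays and control replicate 4. The 3' minus 5' difference of Gapdh probe sets was -0.15 to -0.03 in controls and -0.28 to -0.21 in treated livers (exact permutation p = 0.00794, two-sided, or 0.0278 after Benjamini-Hochberg adjustment over 7 measures of the arrays). The same difference of Actb was 1.28 to 1.78 in controls and 1.19 to 1.33 in treated livers. Hybridisation spike-ins were at 10.65 to 11.30 and 10.54 to 10.74, in that order. The upper quartile of the arrays was 7.39 to 7.46 and 7.30 to 7.36, and the median 5.45 to 5.50 and 5.42 to 5.45. By the same permutation test the adjusted p was 0.0333, 0.037, 0.0278 and 0.0333 for these 4. The part of these measures in the results below was not tested. A value within the low spike-in set is the mean of the 5 treated livers minus control replicate 4, which cannot be told apart from that animal's own level.

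Malic enzyme, phosphogluconate dehydrogenase, ribose 5-phosphate isomerase and mitochondrial isocitrate dehydrogenase were higher in phenobarbital livers, by 1.26 to 1.45-fold. With each gene read from its brightest probe set, 4 of 9 measured members rose and none fell by limma at an adjusted p of 0.05, where 9.02% of all 18193 genes rose and 11.3% fell. None had a negative change at an unadjusted p under 0.05. The median log2 change was 0.15 over the 9 members and 0.008 over all genes. Taken without sign, the median change was closer, at 0.146 over the members and 0.132 over all genes. Rpia and Idh1 were above every control in all treated livers, 2 of 9 members against 5.73% of all genes, and no member was below every control, as 7.21% of all genes were. Within the low spike-in set none of the 9 passed limma, where 0.786% of all genes did. That fit rests on 1 control, so this count decides nothing about the members. The median change there was 0.18 over the members and -0.036 over all genes. The sign was kept in 8 of 9 members, and the share of all genes keeping theirs was not counted. The same treated arrays and control replicate 4 enter both comparisons, so a kept sign is not independent evidence.

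**Figure D1:**
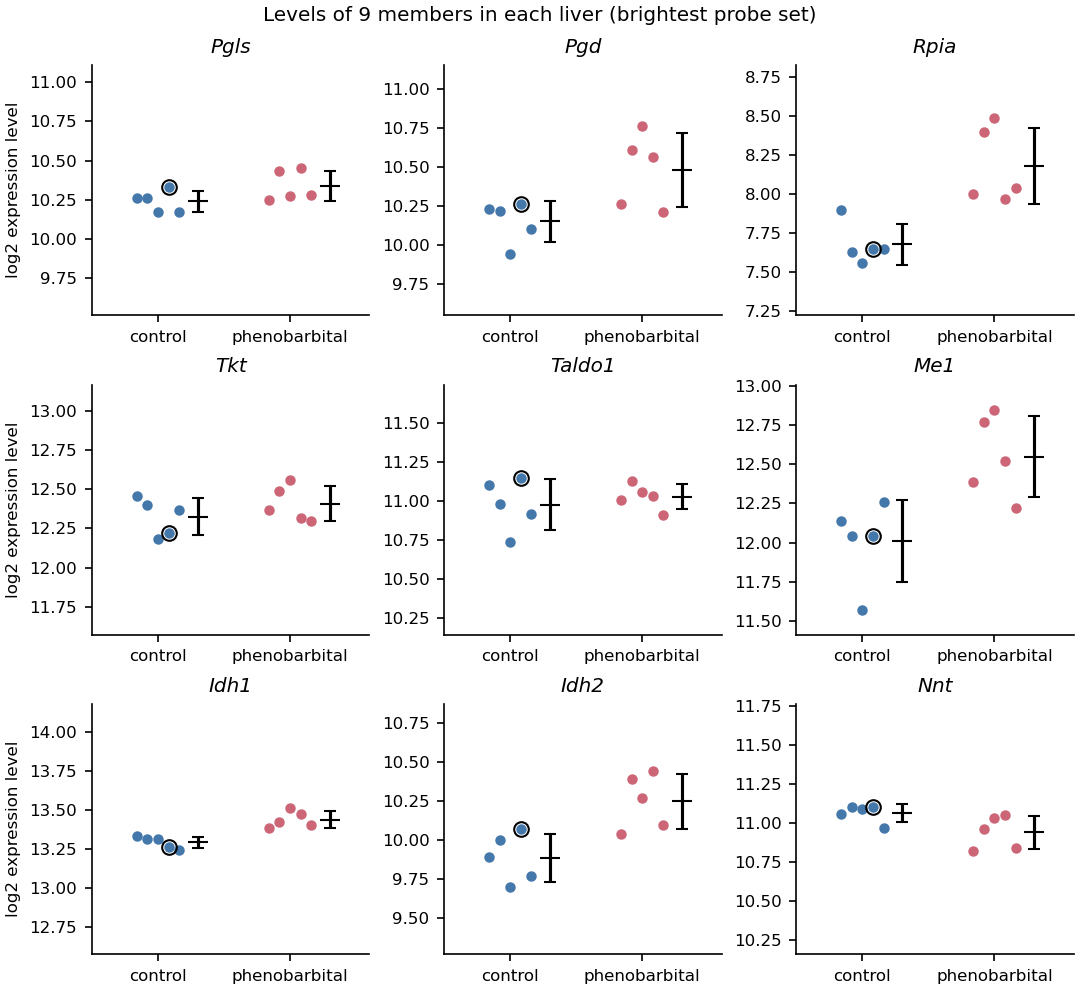
Log2 expression level (vertical axes, each spanning the same range of 1.6) of 9 members in 5 control (blue) and 5 phenobarbital (red) livers, from the brightest probe set; points are livers in replicate order, the ringed point is control replicate 4, and bars are mean and SD. Rpia and Idh1 show no overlap between groups, and Taldo1, Tkt and Pgls overlap widely.

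In the oxidative arm, Pgd, which makes NADPH from 6-phosphogluconate, read 10.23, 10.22, 9.94, 10.26 and 10.10 in control replicates 1 to 5. The treated livers read 10.26, 10.61, 10.76, 10.56 and 10.21, so that replicates 2, 3 and 4 stood above all controls while replicates 1 and 5 lay at the controls' upper end. Its log2 change was 0.33 ± 0.11 (SE, n = 5 per group; limma adjusted p = 0.0459) and 0.22 within the low spike-in set (limma adjusted p = 0.66). The call was lost without control replicate 1, 2, 3 or 5 (0.35, 0.35, 0.28 and 0.32) and without phenobarbital replicate 2, 3 or 4 (0.30, 0.26 and 0.31). Its dimmer probe set 1423706_a_at moved more. It read 8.57, 8.36, 8.09, 8.57 and 8.23 in controls and 8.70, 9.23, 9.44, 9.20 and 8.90 in treated livers, with no overlap between groups. That probe set had a log2 change of 0.73 ± 0.14 (SE, adjusted p = 0.00479 by limma on probe sets tested singly) and kept its call in all 10 omissions of an animal, while its value within the low spike-in set was 0.52. The other 2 Pgd probe sets had log2 changes of 0.33 and 0.32 that did not pass. They and the brightest are of the type whose probes can match further transcripts.

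Pgls, the lactonase of the step before PGD, lay between 10.17 and 10.33 in controls and between 10.25 and 10.45 in treated livers. The groups overlapped, the log2 change of 0.098 had a 95% interval from -0.04 to 0.24, and limma gave an adjusted p of 0.307. Of the oxidative arm, then, 1 of 2 measured enzymes passed.

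In the non-oxidative arm, Rpia, which interconverts ribulose and ribose 5-phosphate, read 7.90, 7.63, 7.56, 7.65 and 7.65 in control replicates 1 to 5 and 8.0, 8.40, 8.49, 7.97 and 8.04 in treated livers. All treated livers were above all controls, with treated replicates 2 and 3 the highest. The log2 change was 0.50 ± 0.11 (SE, n = 5 per group; limma adjusted p = 0.00829), a 1.42-fold rise larger in size than that of 95.4% of genes. Within the low spike-in set it was 0.53, with an unadjusted limma p of 0.0191 and an adjusted p of 0.264. Among the members, Rpia alone had an unadjusted p under 0.05 there. It has a single probe set and kept its call in all 10 omissions of an animal.

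Transketolase, which moves carbon units between sugar phosphates, gave different answers on its probe sets. The brightest, 1439443_x_at, read 12.46, 12.40, 12.18, 12.22 and 12.37 in controls and 12.37, 12.49, 12.56, 12.32 and 12.30 in treated livers, and the groups overlapped (log2 change 0.082 ± 0.077 SE, limma adjusted p = 0.475). The probe set 1451015_at read 10.78, 10.71, 10.39, 10.87 and 10.65 in controls and 11.02, 11.18, 11.14, 11.02 and 10.94 in treated livers. There all treated livers were above all controls, and the log2 change was 0.38 ± 0.09 (SE, adjusted p = 0.0127 singly). Within the low spike-in set the values were 0.19 on each of these, since control replicate 4 was the second lowest control on the first and the highest on the second. The dimmest, between 4.92 and 5.54, had a change of 0.24 that did not pass (adjusted p = 0.0575 singly).

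Taldo1, the transaldolase that works beside transketolase, lay between 10.74 and 11.15 in controls and between 10.91 and 11.13 in treated livers. Every treated value fell inside the range of the controls. The log2 change of 0.05 had a 95% interval from -0.13 to 0.23 (limma adjusted p = 0.696), and it was -0.12 within the low spike-in set and -0.0095 without control replicate 3.

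Among the enzymes outside the pentose phosphate pathway, Me1, which turns malate into pyruvate and is a classical lipogenic enzyme, had the largest log2 change of the 9 brightest probe sets. It read 12.14, 12.04, 11.57, 12.04 and 12.26 in control replicates 1 to 5 and 12.39, 12.77, 12.85, 12.52 and 12.22 in treated livers. Treated replicate 5 lay just under the highest control, and the other 4 treated livers were above all controls. The log2 change was 0.54 ± 0.14 (SE, n = 5 per group; limma adjusted p = 0.0177), or 1.45-fold, and 0.51 within the low spike-in set (limma adjusted p = 0.409). On its other probe set, 1416632_at, controls read 11.17, 11.04, 10.59, 10.87 and 10.88 and treated livers 11.51, 11.83, 12.10, 11.76 and 11.22. The groups did not overlap there, and the log2 change was 0.77 ± 0.15 (SE, adjusted p = 0.00537 singly), or 1.71-fold, and 0.81 within the low spike-in set. As a gene, and on 1416632_at, Me1 kept its call in all 10 omissions of an animal, while the brighter probe set tested singly lost it without phenobarbital replicate 2 (0.49, adjusted p = 0.0517).

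Idh1, the cytosolic isocitrate dehydrogenase, moved little but evenly on its brightest probe set. Controls read 13.33, 13.31, 13.31, 13.26 and 13.24, and treated livers 13.38, 13.42, 13.51, 13.47 and 13.40. All treated livers were above all controls, yet the log2 change of 0.15 ± 0.06 (SE) did not pass limma (adjusted p = 0.0812, 95% interval 0.03 to 0.27). The second probe set, 1419821_s_at, had a log2 change of 0.28 ± 0.08 (SE, adjusted p = 0.0237 singly), with controls from 11.98 to 12.24 and treated livers from 12.22 to 12.50. That call was lost with control replicate 5 left out (0.26), and likewise for phenobarbital replicates 3 and 4 (0.25 and 0.26). Within the low spike-in set the changes were 0.18 and 0.37, neither passing.

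Idh2, the mitochondrial enzyme of the same reaction, read 9.89, 10, 9.70, 10.07 and 9.77 in controls and 10.04, 10.39, 10.27, 10.44 and 10.10 in treated livers. Control replicate 4, the highest control, lay above treated replicate 1 alone. The log2 change was 0.36 ± 0.10 (SE, n = 5 per group; limma adjusted p = 0.0203) and 0.18 within the low spike-in set (limma adjusted p = 0.676). The call was lost without control replicate 3 (0.32, adjusted p = 0.052) and without phenobarbital replicate 2 or 4 (0.33 and 0.31, limma adjusted p = 0.0542 and 0.0509). A second probe set, between 5.39 and 5.86 on all arrays, had a change of 0.11 that did not pass.

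Nnt, which links the mitochondrial NADH and NADPH pools, was the one member with a negative change on its brightest probe set. It lay between 10.97 and 11.10 in controls and between 10.82 and 11.05 in treated livers, which overlapped (log2 change -0.12, 95% interval -0.27 to 0.02, limma adjusted p = 0.199). Its other probe sets had changes of -0.18 and 0.15, neither passing. The C57BL/6J substrain carries a deletion within Nnt; the labels name the C57BL/6 parent without a substrain, and the probe sets cannot show which alleles these mice have.

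Over the 19 probe sets of the members, tested singly among 34945, 8 were higher and none lower at an adjusted p of 0.05, where 8.20% of all were higher and 12.1% lower. These 8 belonged to 6 genes, since 1 probe set each of Tkt and Idh1 passed beside those of Pgd, Rpia, Me1 and Idh2. Of the 6 members with more than 1 probe set, Me1 alone had every probe set called. For Pgd, Tkt, Me1 and Idh1 a dimmer probe set gave a larger log2 change than the brightest, and both dimmer probe sets of Nnt gave changes larger in size, of opposite signs. Probe sets of a gene share the same RNA and are not replicates.

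**Figure D2:**
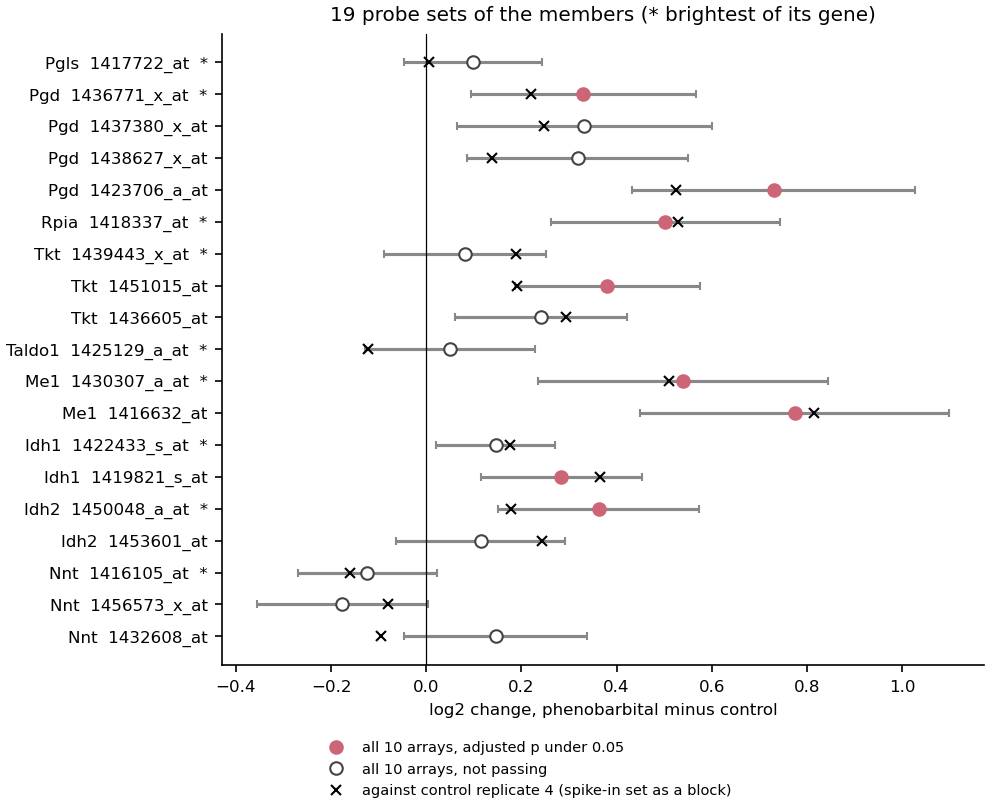
Log2 change, phenobarbital minus control (horizontal axis), of the 19 probe sets of the members, with 95% intervals from limma over all 10 arrays; filled points passed an adjusted p of 0.05 among all probe sets, and crosses are the values against control replicate 4 alone. The 2 probe sets of Me1 and the dimmest of Pgd lie farthest right, at 0.54, 0.77 and 0.73, and those of Nnt around 0.

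The members varied between animals of a group as well as between groups. Control replicate 3 was the lowest control, alone or tied, in 7 of 9 members, all but Idh1 and Nnt, and in Me1 it lay 0.44 under the control mean. Control replicate 4 was the highest control, alone or tied, in 5 members, Pgls, Pgd, Taldo1, Idh2 and Nnt. Among treated livers replicate 3 was the highest in 5 members, Pgd, Rpia, Tkt, Me1 and Idh1, while replicates 1 and 5 were each the lowest in 4, replicate 1 in Pgls, Idh1, Idh2 and Nnt and replicate 5 in Pgd, Tkt, Taldo1 and Me1. Leaving out control replicate 3, phenobarbital replicate 2 or phenobarbital replicate 4 reduced the members called higher from 4 to 2, leaving Rpia and Me1. Over all genes these omissions reduced the higher calls as well, from 1641 to 1087, 1021 and 1143, in that order.

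**Figure D3:**
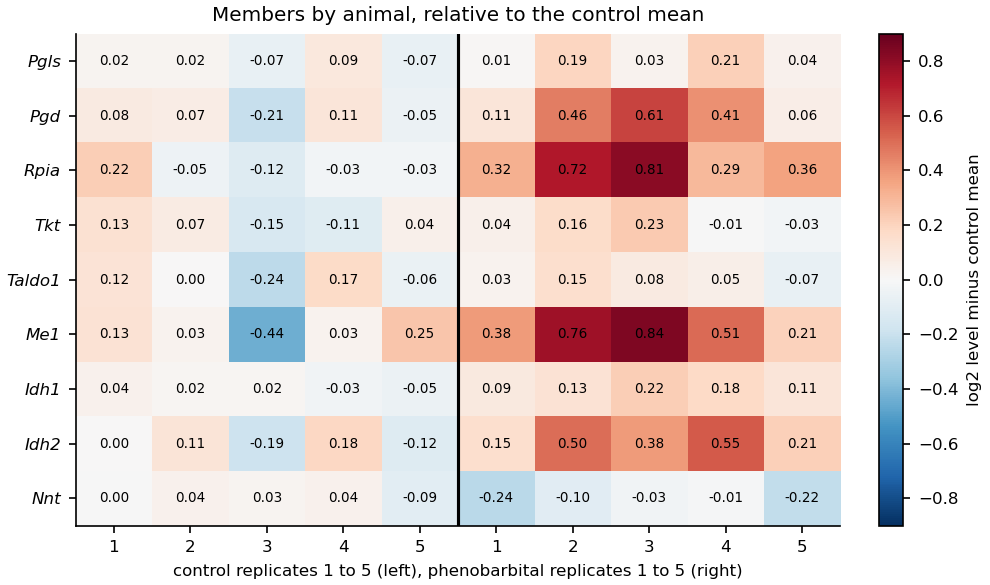
Log2 level of each member's brightest probe set minus its control mean, in each animal (columns, controls 1 to 5 left of the line and phenobarbital 1 to 5 right of it); red is above and blue below the control mean. The row of Me1 runs from -0.44 in control replicate 3 to 0.84 in phenobarbital replicate 3.

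The genes with the most similar profiles over the 10 arrays were found for each called member by the root mean square difference of levels centred on each gene's mean. The nearest to Me1 was Pklr, liver pyruvate kinase, at a difference of 0.10 log2 units, followed by Tgfbr2 and 4933424M12Rik. Those nearest to Pgd were Mr1, Trim7 and Gamt (0.053 to 0.071), and to Idh2 Tex261, Lsm10 and Txndc12 (0.054 to 0.072). For Rpia they were Acrv1, Mpeg1 and Eif4e3 (0.070 to 0.097). No other member was among the 3 nearest of any called member.

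Related genes were read from lists by their role. Among 14 other pentose phosphate and ribose enzymes 2 were higher and 1 lower by limma (median log2 change 0.06, against 0.008 over all genes), and 4 were higher with quantile normalisation or median centring. Without control replicate 3 the lower calls were 2. For this and each list below, the shares of all genes called by limma were 9.02% higher and 11.3% lower. No test compared these lists with other genes or with each other. The kinase Shpk, which feeds sedoheptulose into the pathway, rose by 0.30, and the ribose-phosphate pyrophosphokinases, which carry ribose 5-phosphate into nucleotide synthesis, moved apart, with Prps1 at 0.26 and Prps2 at -0.54, or -0.26 as the mean of its probe sets. Prps1 lost its call when control replicate 5, or phenobarbital replicate 2, 4 or 5, was left out, and over all 10 omissions its change was 0.21 to 0.31. H6pd, which runs the oxidative steps in the endoplasmic reticulum, had a log2 change of -0.04 ± 0.10 (SE, limma adjusted p = 0.814), and -0.24 within the low spike-in set. It turned sign without control replicate 2 or 4, or phenobarbital replicate 5 (0.0035, 0.0135 and 0.011).

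Among other sources of NADPH and NADP 1 of 11 measured genes was higher and 3 were lower by limma (median -0.06), where 9.02% and 11.3% of all genes were. The number higher was 2 with quantile normalisation, with median centring and without phenobarbital replicate 3, and 3 without control replicate 4. Nadk, the cytosolic NAD kinase that makes NADP, rose by 0.34 while the mitochondrial kinase Nadk2 fell by 0.38 on the log2 scale. Their changes were 0.21 and -0.16 within the low spike-in set. Mthfd2l, a mitochondrial folate dehydrogenase, fell by 0.47 (-0.22 as the mean of its probe sets), and glutamate dehydrogenase Glud1 fell by 0.28. The mitochondrial malic enzymes Me2 and Me3 had changes of -0.10 and -0.06 that did not pass. Glud1, Me2 and Me3 were named after their values were seen.

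Genes of malate, citrate and isocitrate metabolism had 5 of 13 higher and none lower by limma, also at an unadjusted p under 0.05 (median 0.13). At the adjusted p, 9.02% of all genes were higher and 11.3% lower. The list also holds users of citrate and isocitrate, with Acly and Idh3a among the 5 higher. Citrate synthase (Cs) rose by 0.44, the mitochondrial citrate carrier Slc25a1 by 0.43 and ATP citrate lyase (Acly) by 0.39. Acly lost its call when control replicate 2 or 3, or phenobarbital replicate 2, 3 or 4, was left out, with changes of 0.30 to 0.45 over the 10 omissions. Within the low spike-in set Slc25a1 was at 0.03 against 0.36 for Acly and 0.29 for Cs, and Cs was at 0.28 as the mean of its probe sets. Of 7 genes of glucose 6-phosphate supply and use, Pklr alone passed (0.48, list median 0.10), and it lost its call without phenobarbital replicate 2, 3 or 4 (0.37 to 0.55 over the 10 omissions).

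Of the pathways that spend NADPH, in drug oxidation and carbonyl reduction 4 of 17 were higher and 1 lower (median 0.05). Of all genes 9.02% were higher and 11.3% lower. Carbonyl reductase Cbr1 led the list at 0.42, with cytochrome b5 reductase Cyb5r3 at 0.31 and biliverdin reductase Blvrb at 0.28. Cyb5r3 and its partner Cyb5a (0.17), both among those higher, form a system that draws on NADH. Blvrb lost its call in 8 of 10 omissions, all but those of control replicate 4 and phenobarbital replicate 5, with changes of 0.22 to 0.34, and was at 0.03 within the low spike-in set. In the same 8 omissions the list had 2 genes higher, and in all 10 it had none lower. Cyb5r3 was at 0.10 (limma adjusted p = 0.31) on a probe set without a suffix for shared probes. Por, the P450 reductase, is not analysed here. In glutathione and thioredoxin reduction 7 of 16 were higher and 3 lower (median 0.11). That list also holds Gclc and Gclm of glutathione synthesis, and Gclc (-0.35) was among the 3 lower. Sulfiredoxin Srxn1 rose by 0.78 and the quinone reductase Nqo1 by 0.76, the thioredoxin reductase Txnrd3 fell by 0.60, and Gsr, glutathione reductase, did not pass on its brightest probe set (0.12, limma adjusted p = 0.174). As the mean of its probe sets Gsr passed limma (0.24, adjusted p = 0.0193). Txnrd3 was at -0.33 as such a mean and at -0.28 within the low spike-in set. On probe sets without a suffix 4 genes of the list were higher.

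Lipid and sterol synthesis had the highest median of these lists, 0.31, with 5 of 13 genes higher by limma and none lower. At an unadjusted limma p under 0.05, 7 were higher and none lower. The median was 0.04 within the low spike-in set. Those higher at the adjusted p were 3 without control replicate 2 or 3 and 2 without phenobarbital replicate 2. The elongase Elovl6, fatty acid synthase Fasn and squalene epoxidase Sqle led the list, at 1.01, 0.98 and 0.64. Elovl6 was at 0.62 as the mean of its probe sets, and Sqle at 0.29 within the low spike-in set. Fasn lost its call with trend and robust variance (limma adjusted p = 0.06) and without phenobarbital replicate 2, with changes of 0.76 to 1.14 over the 10 omissions. Among 10 regulators 2 were higher, the lipogenic Thrsp (1.49) and Mlxipl (0.42), which encodes the glucose-responsive factor ChREBP and was at 0.15 within the low spike-in set. On probe sets without a suffix 1 was higher, Thrsp, since Mlxipl had none and was not measured there. With the mean of probe sets 1 was lower. Nfe2l2, the gene of NRF2, read 10.38, 10.35, 10.36, 9.85 and 10.19 in control replicates 1 to 5 and 10.23, 10.41, 10.33, 10.18 and 10.10 in treated livers. Control replicate 4 was the lowest of all 10, and the groups overlapped (log2 change 0.02, limma adjusted p = 0.893). The change was 0.40 within the low spike-in set, with an unadjusted limma p of 0.008 and an adjusted p of 0.195. It was -0.07 without control replicate 4 and -0.016 without phenobarbital replicate 2. Within the low spike-in set none of the 101 genes of these lists passed limma, and 13 had an unadjusted p under 0.05.

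**Figure D4:**
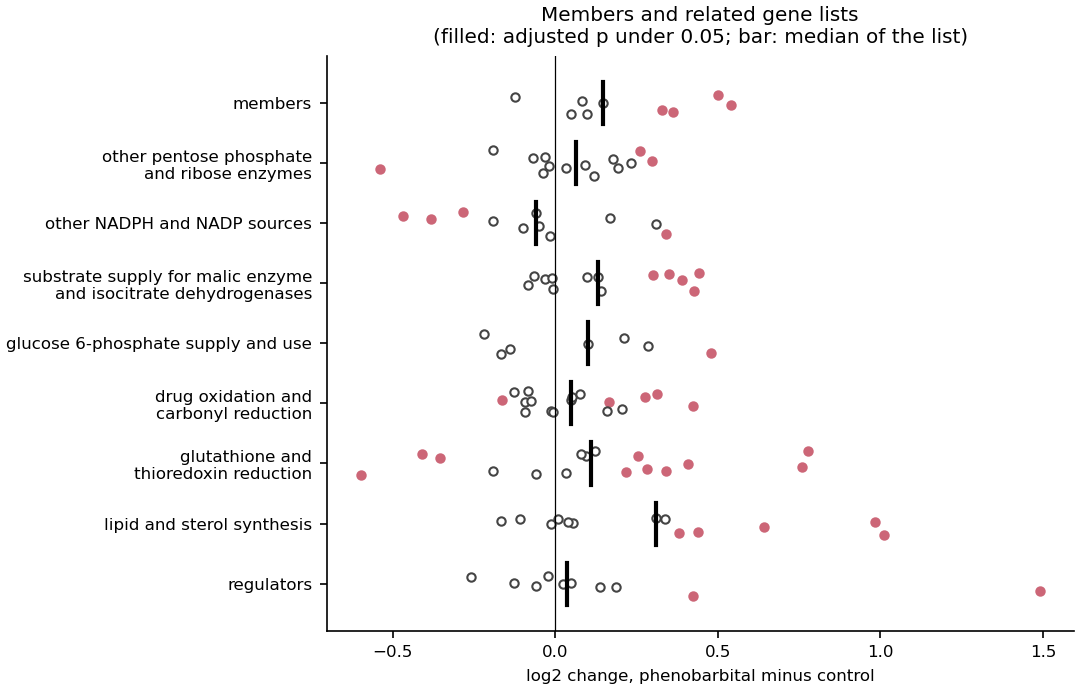
Log2 change, phenobarbital minus control (horizontal axis), of each measured gene in the members and in 8 related lists (rows); filled points passed a limma adjusted p of 0.05 over all genes, and vertical bars are list medians. The medians run from -0.06 for other NADPH and NADP sources to 0.31 for lipid and sterol synthesis.

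The livers are bulk tissue, so fewer cells of a type and less RNA per cell cannot be told apart. The marker counts that follow are by limma at an adjusted p of 0.05, where 9.02% of all genes were higher and 11.3% lower. Stellate cell markers were lower in 5 of 6 genes (mean level 9.07 to 9.21 in controls, 8.42 to 8.90 in treated livers) and sinusoidal endothelial markers in 3 of 6 (8.41 to 8.89, 8.18 to 8.59). Hepatocyte markers were lower in 1 of 6 (14.57 to 14.60, 14.48 to 14.54). Kupffer cell and leukocyte markers passed limma in 0 of 10 (7.53 to 7.89, 7.57 to 7.85) and those of dividing cells in 0 of 4 (5.15 to 5.37, 5.11 to 5.48), with 1 and 0 at an unadjusted p under 0.05. Red blood cell and bile duct markers were each higher in 1 gene, of 3 (6.41 to 6.77, 6.65 to 6.81) and of 4 (5.24 to 5.57, 5.35 to 5.50). These were Alas2 and Epcam, with log2 changes of 0.38 and 0.54, and 0.07 and 0.19 within the low spike-in set. The bile duct markers Krt7, Sox9 and Krt19 had changes of -0.17, -0.15 and 0.08 that did not pass. No marker lay below the lower quartile on all arrays. Krt7 of bile ducts and Birc5 of dividing cells did on some, down to 3.96 and 3.94 against quartiles of 4.13 to 4.20. The red blood cell mean joins Alas2, at 10.56 in controls, with Hba-a1 at 4.48 and Slc4a1 at 4.66. The part of these cell types in the members' changes was not tested.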

How the data were processed

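Total RNA (0.1 µg) of each liver was labelled by 3' in vitro transcription, per the labels' protocols, which reads the 3' end of transcripts. The authors deposited log2 expression values, read as log2 from their range of 2.34 to 15.13. How probes were summarised and normalised is not given in the sources used, and GCOS is named in the submitters' processing notes. Array quartiles lay within 0.16 of each other, and values were used as deposited, with no filter on low values. The upper quartile was nonetheless higher in every control than in any treated liver, as given above. Other scalings moved the share of higher calls, as given below.

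One listed gene is not reported here. Groups came from the labels, and each array is 1 animal. A gene was read from its brightest probe set by the mean of 10 arrays. Groups were compared by limma 3.58.1 in R 4.3.3 (lmFit, eBayes, two-sided, Benjamini-Hochberg over 18193 genes, or over 34945 probe sets where tested singly). The number of arrays, 5 per group, limits the precision. In simulations with 5 arrays per group on 18193 genes, 200 changed genes were planted over independent noise. Changes of 2-fold were called in 97.9%, of 1.4-fold in 70.4% and of 1.2-fold in 14.5% of cases. There, 7.6 unchanged genes were called per run (mean of 5 runs). The data had 3692 genes called, where the adjustment sets another cut-off, so these rates need not hold for them.

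The members, lists, alternatives and tests were chosen with earlier results of these data known. Members were all named, and from each list the 3 called genes with the largest change, with Gsr, Fasn, H6pd, Nfe2l2 and Por fixed by name and Cyp2b10 as a check of treatment. Figures were drawn with matplotlib 3.10.9. Alternatives were other scalings, probe set rules and variance models, the spike-in set (split at the largest gap in 24 poly-A spike-in probe sets) or replicate number as a block, and omission of single animals.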

Additional observations from a re-analysis of the deposited data

Results flagged for a closer look

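Control replicate 1 stood apart in Rpia, at 7.90 where the other controls were between 7.56 and 7.65, a gap of 0.735 of the group's range against a critical value of 0.71. It was the only such value among 52 groups of 5 examined (19 probe sets and 7 array measures in each treatment), and chance gives about 1 in 20. Without it the log2 change of Rpia was 0.56, and the limma call held.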

How the results depend on the processing

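The count of 4 members called higher was 3 to 6 under quantile normalisation, median centring, the brighter genes, the mean of probe sets, probe sets without a suffix, single testing, trend and robust variance and the replicate block. It was 0 with the spike-in set as a block, where 1 control remains for comparison, and 2 to 4 with 1 animal left out. No member was called lower under any of these. Taldo1 turned sign with the spike-in set as a block (-0.12) and without control replicate 3, its range over omissions of 1 animal being -0.0095 to 0.093. Tkt and Idh1 passed with the mean of probe sets (0.23 and 0.22), Tkt also on its probe set without a suffix (0.38) and Idh1 with trend and robust variance (0.15). Idh2 lost its call on its probe set without a suffix (0.11), where Pgd, Taldo1 and Idh1 had none. The replicate block left 3 members called, Pgd losing its call (0.33, limma adjusted p = 0.0611). Deviations of same-numbered animals correlated weakly (-0.02 to 0.12), and the numbers were not taken as pairs. Control replicates 4 and 5, but not 1 to 3, correlated best with the treated animal of their own number. The cause of these changes was not tested. Over all genes 1641 were higher and 2051 lower, a share of higher calls of 44.4%, which became 34.6% among the brighter genes, 58.8% with median centring and 60.0% with quantile normalisation. With the spike-in set as a block 88 were higher and 55 lower. Without control replicate 2 they numbered 1083 and 1377, and without phenobarbital replicate 2 1021 and 1410. Values near 5, as on the dimmest probe sets of Tkt, Idh2 and Nnt, are close to the array median, where changes may be understated.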
